A study of Homo sapiens with 2 samples.

Results

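Collagens are the family of chains that wind in threes into the triple helices of the extracellular matrix, and the members described here are the genes whose platform symbol has the form COL, a number, A and a number. That rule took 112 probe sets of 43 genes, of 19775 genes named on the array. They fall into 11 fibrillar genes, 6 basement membrane genes (the type IV chains), 3 transmembrane genes and 23 others. Expression was read in the human line Panc1, derived from a pancreatic ductal adenocarcinoma, on 1 Affymetrix array for each of 2 stable populations. The Panc1/syk-wt population carried transfected wild-type SYK, a cytoplasmic tyrosine kinase, and the Panc1/mock population, which the series title calls drug-resistant, carried the vector only. Both were kept under hygromycin and harvested before confluence, and the labels describe them as populations, not clones. The comparison, syk minus mock, asks how transcript levels differ between cells labelled as carrying introduced SYK and cells with the vector. With 1 array per population there is no replicate error and no test, so every difference below is a single measurement, and population, RNA preparation and array cannot be told apart.

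Fibrillar chains carry one long uninterrupted helix and pack into the banded fibres of connective tissue. Type IV chains form the open network under epithelia, fibril-associated chains sit on the surface of fibres, and transmembrane collagens are anchored in the cell membrane. Epithelial cells usually make basement membrane collagens, and in pancreatic tumours most fibrillar collagen comes from stellate cells and fibroblasts, which a pure cell line does not contain. A chain is secreted only after it has been hydroxylated and folded with its partner chains in the endoplasmic reticulum, so the partners and the folding enzymes are described with it.

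Values are RMA signals, log2 intensities per probe set as the authors deposited them. Each gene is represented by its brightest probe set, judged on the average of the 2 arrays. It counted as measured where that average reached 4.25, the median of all probe sets, and as differing at 2-fold, a log2 difference of 1. The highest of 27 control probe sets against bacterial transcripts read 4.77, and a signal at or below it is called dim. The SYK probe sets themselves were dim, with 4.73, 2.98, 3.05 and 3.09 on the syk array against 4.27, 3.07, 3.12 and 3.37 on the mock array, so the labels had no clear check. For the ACTB control the 3' probe set exceeded the 5' one by 2.37 on the syk array and by 1.95 on the mock array. For the GAPDH control it did so by 0.32 on the syk array and 0.19 on the mock array. The part of these differences in the results was not tested. Of the 6 epithelial markers, 5 were above 4.77 on the syk array and 6 on the mock array. The exception on the syk array was CDH1 (3.47, against 6.34 on the mock array). Of the 6, 2 were at least 2-fold lower on the syk array, CDH1 and the keratin KRT19 (9.44, against 10.9 on the mock array). At least 2-fold higher were 0, beside shares of 3.65% lower and 3.61% higher over all measured genes. EPCAM was higher by less than 2-fold (7.08 on the syk array, against 6.77 on the mock array). The list's median was -0.63, and with the mean over each gene's probe sets 0 of 5 measured markers were past 2-fold. The median of the markers was thus below 0, as was that of the collagens described below. The part of these markers in those results was not tested.

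Most collagen genes were dim in Panc1. Over all 19775 genes, 7915 were dim on both arrays by their brightest probe set. Of the 43 collagen genes, 29 had no probe set above 4.77 on either array, and no direction is read from any of them singly. They included all 6 type IV genes, whose brightest probe sets lay between 3.02 and 4.08 on the syk array and between 3.11 and 3.93 on the mock array. Their signal thus stayed at the level of the bacterial controls in both populations. COL1A2, COL2A1, COL3A1, COL5A1, COL5A3 and COL24A1 were the dim fibrillar chains, and COL23A1 and COL25A1 the dim transmembrane ones. Among the others the dim genes were COL6A3, COL6A5, COL6A6, COL8A1, COL8A2, COL9A1, COL9A2, COL10A1, COL14A1, COL15A1, COL16A1, COL19A1, COL20A1, COL22A1 and COL28A1. The 14 genes with a probe set above 4.77 on at least 1 array are described below.

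Of the 18 measured collagen genes, 7 were at least 2-fold lower on the syk array (38.9%), against a background of 3.65% of 12814 measured genes. In the other direction 2 were at least 2-fold higher (11.1%), against a background of 3.61%. The lower genes were COL5A2, COL11A1, COL21A1, COL9A3, COL6A1, COL1A1 and COL18A1, and the higher ones COL13A1 and COL12A1. The median difference over the 18 was -0.44 (-0.12 with dim signals set to 4.77), against 0.01 over all measured genes. Below 0 were 13 of the 18 (72.2%), against 47.8% of all measured genes. The filter was passed by 2 of the 18 through the mock array alone (COL16A1 and COL9A2), neither of them past 2-fold. Of the 18, 4 were dim on both arrays, with differences from -0.54 to 0.002. The median and the count below 0 include these dim genes. No gene among the 25 that missed the filter was past 2-fold, so the counts over all 43 were also 7 and 2.

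**Figure D1:**
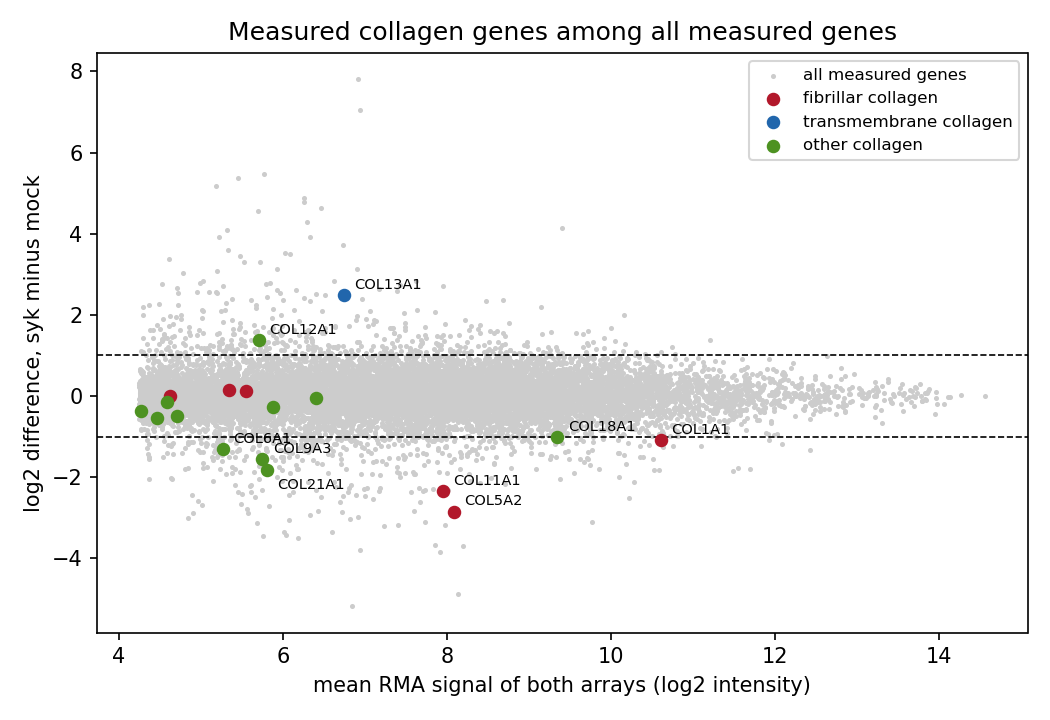
Difference between the arrays (vertical axis, log2, syk minus mock) against the mean RMA signal of both arrays (horizontal axis, log2 intensity) for the 12814 measured genes in grey and the 18 measured collagens in colour by class, 1 array per population. Dashed lines mark 2-fold; 7 collagens lie on or below the lower line and 2 above the upper one.

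Promoters are shown for the genes past 2-fold that have exactly 1 entry in the RefSeq promoter table (GRCh38.p14), so that a reader can see the sequence before the start of a lower gene beside those of the higher genes. Of the 43 collagen genes, 31 have an entry there. Each run is the 250 bases before the annotated start, 5′ to 3′ on the gene's own strand, with capitals for matches on either strand to the TATA box (TATAAA), to the CCAAT box (its name spells its letters), to the GC box (GGGCGG) and to the AP-1 motif (TGANTCA). The COL11A1 window is chr1:103108523-103108772 on the minus strand, that of COL12A1 is chr6:75206054-75206303 on the minus strand, and that of COL13A1 is chr10:69801656-69801905 on the plus strand.
COL11A1: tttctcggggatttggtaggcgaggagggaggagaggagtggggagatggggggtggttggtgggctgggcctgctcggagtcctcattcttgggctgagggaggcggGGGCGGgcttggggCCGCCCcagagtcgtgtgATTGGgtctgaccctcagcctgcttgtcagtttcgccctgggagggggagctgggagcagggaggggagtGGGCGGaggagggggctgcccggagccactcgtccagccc
COL12A1: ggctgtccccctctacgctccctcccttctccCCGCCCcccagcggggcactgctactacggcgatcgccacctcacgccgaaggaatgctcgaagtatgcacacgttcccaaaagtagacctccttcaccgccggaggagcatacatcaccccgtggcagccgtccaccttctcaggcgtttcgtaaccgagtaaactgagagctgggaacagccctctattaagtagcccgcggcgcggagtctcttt
COL13A1: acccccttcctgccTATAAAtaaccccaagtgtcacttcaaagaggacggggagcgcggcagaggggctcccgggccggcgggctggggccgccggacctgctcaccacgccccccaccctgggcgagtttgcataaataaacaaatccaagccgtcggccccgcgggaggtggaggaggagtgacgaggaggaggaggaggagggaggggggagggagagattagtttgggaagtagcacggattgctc
The lower gene COL11A1 holds 3 GC boxes and 1 CCAAT box, COL12A1 holds 1 GC box, and COL13A1 holds 1 TATA box letter match, 236 bases before the start. No marked match overlaps another, and none is the AP-1 motif. Of all 35116 promoter windows of this length, 42.6% hold a GC box, 32.0% a CCAAT box, 10.7% a TATA box and 6.57% an AP-1 motif on either strand. Among the 44 collagen windows these shares were 54.5%, 27.3%, 18.2% and 2.27%. The GC content of the 3 windows was 68.8%, 61.2% and 64.0%, against medians of 64.2% over collagen windows and 58.0% over all. A match is a description of the letters and does not show that a factor binds there.

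Among the fibrillar genes, 6 of 11 were measured, of which 3 were past 2-fold downward and 0 upward, beside 3.65% and 3.61% of all measured genes. COL5A2, the alpha 2 chain of type V collagen, which helps to start fibrils and sets their width, had 6.66 and 6.43 in its 2 probe sets (221730_at and 221729_at) on the syk array, against 9.50 and 8.93 on the mock array. Both probe sets were clear of the dim range on both arrays and moved alike, by -2.85 and -2.50, or 7.20-fold and 5.64-fold lower. Only 25 of the 12814 measured genes had a more negative difference. COL11A1, the alpha 1 chain of type XI collagen, a minor fibrillar collagen of cartilage that is also known from tumour stroma, had 6.79 and 6.14 in probe sets 37892_at and 204320_at on the syk array, against 9.12 and 8.06 on the mock array. These are 5.05-fold and 3.79-fold lower, and 52 measured genes had a more negative difference. Its remaining probe set (229271_x_at) was dim on both arrays.

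COL1A1 encodes the alpha 1 chain of type I collagen, the main collagen of bone, skin and scar. Its brightest probe set, 1556499_s_at, read 10.1 on the syk array against 11.2 on the mock array, 2.13-fold lower. The other 3 above the dim range read 8.18, 5.08 and 6.07 on the syk array, against 8.99, 5.49 and 6.17 on the mock array. Their differences were -0.81, -0.41 and -0.09. All 5 COL1A1 probe sets were lower on the syk array, but 1 of them carried the gene past 2-fold. The 2 remaining fibrillar genes above the dim range showed smaller differences. COL11A2, the alpha 2 chain of type XI, had 5.61 on the syk array and 5.49 on the mock array. COL27A1, a chain of cartilage fibrils, had 5.42 on the syk array and 5.28 on the mock array. COL5A3 passed the filter but was dim, with 4.63 on the syk array and 4.62 on the mock array.

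The chains that usually share a helix with these were mostly dim. The main form of type I collagen joins COL1A1 chains with a COL1A2 chain, and the brightest COL1A2 probe set read 3.80 on the syk array and 3.43 on the mock array. Type V collagen joins COL5A1 chains with COL5A2, and the brightest COL5A1 probe set read 3.53 on the syk array and 4.35 on the mock array. All 3 probe sets of both partners were dim. COL11A1 and COL5A2 chains are known to join in mixed type V/XI molecules in some tissues. These were the fibrillar pair with the largest differences, but whether their chains join in Panc1 was not tested. COL3A1, the type III chain and the neighbour of COL5A2 among protein-coding genes on chromosome 2, had 3.76 on the syk array and 4.19 on the mock array, so the gene beside COL5A2 gave no signal to compare. A dim probe set may also be one that reads its transcript poorly, which was not tested.

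**Figure D2:**
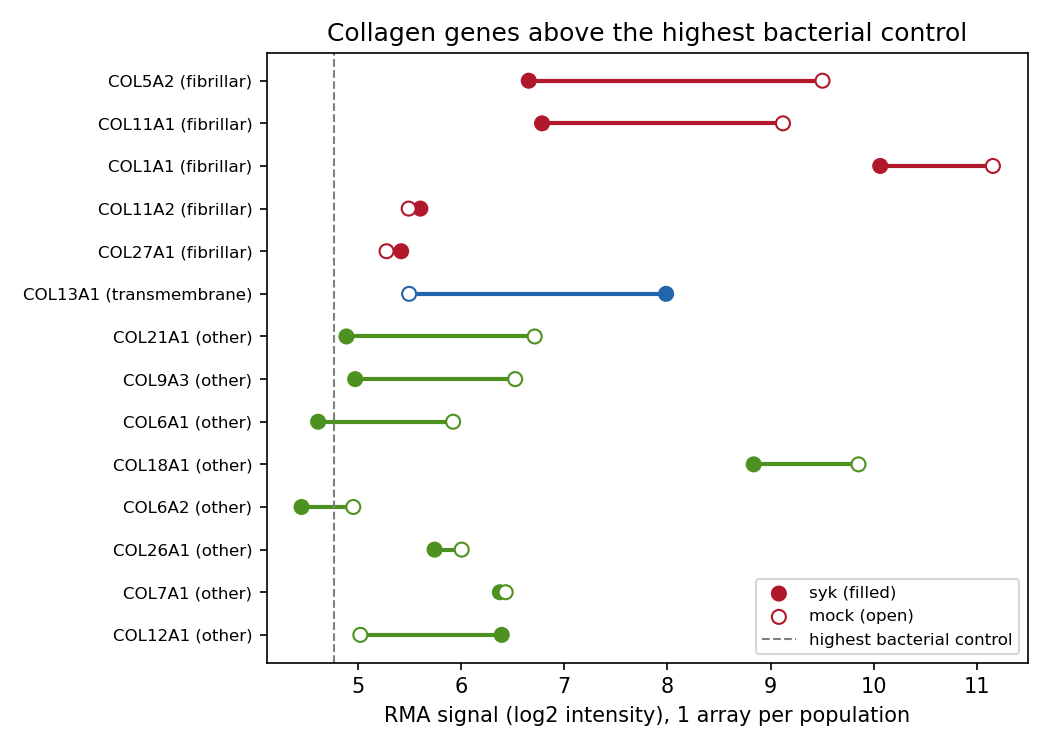
RMA signal (horizontal axis, log2 intensity) of the brightest probe set of each of the 14 collagen genes above the highest bacterial control (dashed line, 4.77) on at least 1 array; filled points are the syk array, open points the mock array, colours the class. The open point lies far right of the filled one for COL5A2 (9.50 on mock) and COL11A1 (9.12 on mock), and the order is turned for COL13A1 (7.99 on syk), COL12A1 (6.39 on syk) and, by less, COL11A2 and COL27A1.

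COL13A1, a transmembrane collagen found at cell-matrix adhesions and at the neuromuscular junction, was the collagen gene with the largest positive difference. Its brightest probe set, 211343_s_at, read 7.99 on the syk array against 5.50 on the mock array, 5.62-fold higher, and 49 measured genes had a larger positive difference. Its other 2 probe sets, 211809_x_at and 208535_x_at, read 5.89 and 5.67 on the syk array against 5.49 and 5.51 on the mock array. All 3 were above 4.77 on both arrays and higher on the syk array, yet their differences ran from 0.16 to 2.49. COL13A1 is known for extensive alternative splicing, and which transcripts each probe set reads was not analysed here. It was the only 1 of the 3 transmembrane genes above the dim range, so the class rests on this gene. COL17A1, also a transmembrane collagen, was not among the genes that the rule took, and its level is not described here.

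The fibril-associated genes above the dim range went both ways. COL21A1, a small member of this group, had 4.89 on the syk array against 6.71 on the mock array in its single probe set, 3.54-fold lower. COL9A3, a chain of the type IX collagen that coats cartilage fibrils, had 4.97 on the syk array against 6.52 on the mock array, also in a single probe set and 2.93-fold lower. On the syk array both lay just above the dim range. Its type IX partners COL9A1 and COL9A2 were dim, with 3.90 and 4.09 on the syk array against 4.03 and 4.46 on the mock array. COL12A1, a large chain on the surface of type I fibres, was higher instead, with 6.39 on the syk array against 5.02 on the mock array (225664_at, 2.59-fold). A second COL12A1 probe set, 231766_s_at, read 4.65 on the syk array and 3.17 on the mock array, dim on both, and the other 3 were dim as well and differed by -0.11 to 0.13.

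Of the 23 other collagens, fibril-associated genes included, 11 were measured. Of these, 4 were at least 2-fold lower and 1 higher, beside 3.65% and 3.61% of all measured genes. Among those not fibril-associated, 2 were at least 2-fold lower. COL18A1, a multiplexin of basement membrane zones whose C-terminal fragment is endostatin, had 8.84 and 8.35 in its 2 probe sets on the syk array, against 9.85 and 9.70 on the mock array. Both probe sets were bright on both arrays and lower on the syk array, by -1.02 and -1.35, and the brighter one was barely past 2-fold. COL6A1, the alpha 1 chain of the beaded filaments of type VI collagen, had 4.61 on the syk array against 5.92 on the mock array in 213428_s_at, at least 2.23-fold lower with the syk value taken at 4.77. The other 7 COL6A1 probe sets were dim on both arrays and differed by -0.29 to 0.19, so the call rests on 1 probe set of 8. COL6A2, its partner and its neighbour on chromosome 21, had 4.45 on the syk array and 4.96 on the mock array, and the other partner, COL6A3, was dim, with 3.73 and 4.09.

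COL7A1, the anchoring fibril chain that ties epithelia to the dermis, showed no 2-fold difference. It had 6.38 and 5.48 in its 2 probe sets on the syk array, against 6.43 and 4.77 on the mock array. Its probe sets thus differed by -0.06 and 0.71. COL26A1, a chain of testis and ovary in mice, had 5.74 on the syk array and 6.01 on the mock array.

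**Figure D3:**
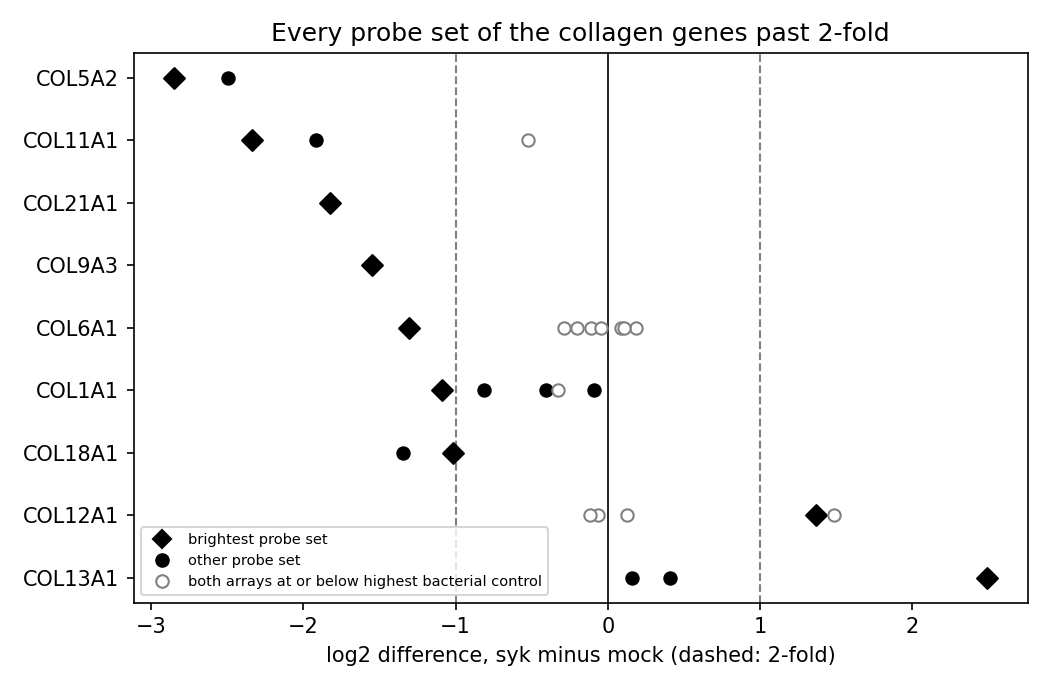
Difference (horizontal axis, log2, syk minus mock) of every probe set of the 9 collagen genes past 2-fold; diamonds are the brightest probe set of a gene, filled circles other probe sets, open circles probe sets at or below 4.77 on both arrays, and dashed lines mark 2-fold. The probe sets above 4.77 lie together for COL5A2, COL11A1 and COL18A1, and apart for COL1A1 and COL13A1.

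The genes past 2-fold thus differed in how many probe sets carried them. COL5A2, COL11A1 and COL18A1 were past 2-fold in 2 probe sets each. COL21A1 and COL9A3 have 1 probe set, in COL1A1, COL6A1 and COL13A1 1 of several passed, and in COL12A1 1 passed besides the dim 231766_s_at. Over probe sets, 10 of the 30 collagen probe sets past the filter were at least 2-fold lower, against a background of 3.39% of 27339, and 2 were at least 2-fold higher, against 3.07%. Probe sets of 1 gene share their RNA and their arrays and are no replicates of the populations.

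Markers of the stromal cells that make most collagen in pancreatic tumours were mostly dim. Of 8 fibroblast or stellate markers, 2 were above 4.77 on each array, and PDGFRA, PDGFRB, FAP, LUM and DCN were dim on both. Their signals ran from 3.35 to 5.21 on the syk array and from 2.44 to 5.18 on the mock array. The summed linear signal of the list was 160 on the syk array and 165 on the mock array. ACTA2, smooth muscle actin, had the largest negative difference among them (4.44 on the syk array, against 5.18 on the mock array). Its 3 probe sets ran from -0.74 to 0.19. The other measured markers, DES and THY1, differed by 0.02 and 0.05, and the median of the 3 measured was 0.02. No endothelial (4) or leukocyte (3) marker measured was above 4.77 on either array.

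In the machinery that modifies, folds and exports the chains, 1 of 22 measured members was past 2-fold downward and 0 upward, close to the shares over all measured genes (3.65% and 3.61%). The median was -0.19. The 1 was P3H3, a prolyl 3-hydroxylase family member, with 4.17 on the syk array and 5.44 on the mock array, or at least 1.60-fold lower with the syk value at 4.77. The next largest differences were those of SERPINH1, the collagen chaperone HSP47 (6.91 on the syk array and 7.82 on the mock array), SEC23A, a coat protein of the vesicles that carry procollagen (8.37 and 9.24), CREB3L1, a transcription factor of collagen secretion (5.61 and 6.46), and CRTAP, a partner of the prolyl 3-hydroxylase (9.84 and 10.6). All 4 were lower on the syk array and under 2-fold by their brightest probe set, although the 5 probe sets of CRTAP ran from -1.45 to -0.57.

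**Figure D4:**
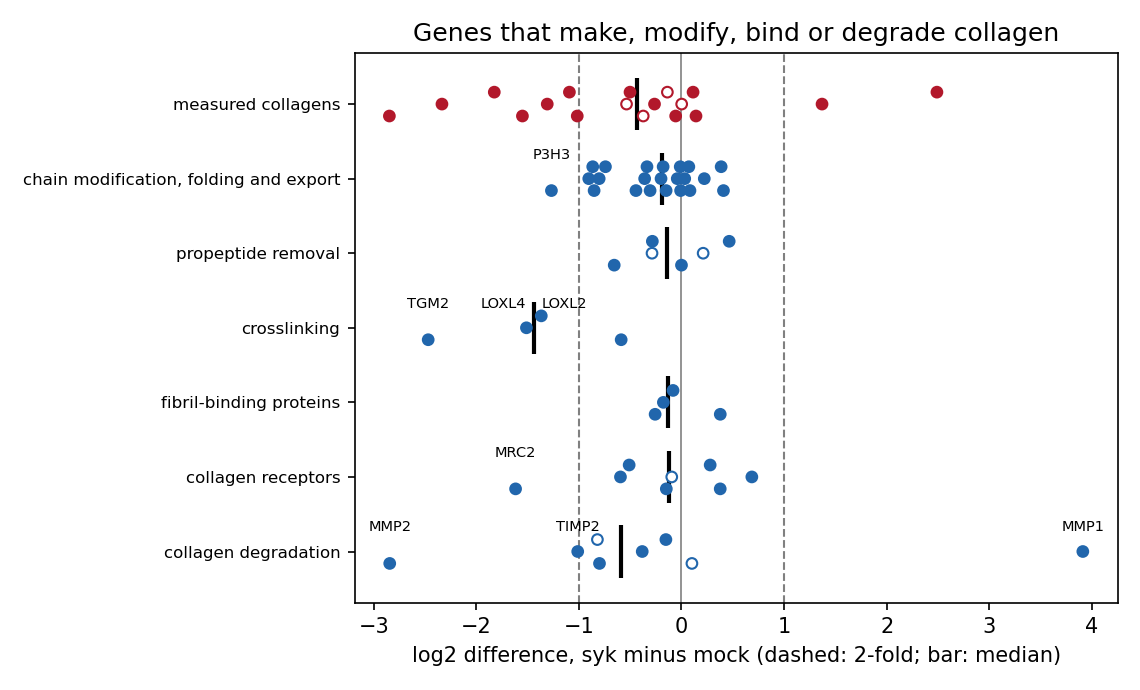
Difference (horizontal axis, log2, syk minus mock) of each measured gene of the collagens and of 6 lists of genes that make, modify, bind or degrade collagen, 1 array per population; open points are genes at or below 4.77 on both arrays, bars the median of a list, dashed lines 2-fold, and the genes past 2-fold outside the collagens are named. The crosslinking list has 3 of its 4 measured genes on the left of the lower line.

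Crosslinking enzymes join collagen chains covalently and stiffen the matrix. Of the 4 measured, 3 were past 2-fold downward and 0 upward, against the background of 3.65%, but with the mean over each gene's probe sets the count was 0. TGM2, tissue transglutaminase, had 5.50 on the syk array and 7.97 on the mock array, 5.54-fold lower. The lysyl oxidase family members LOXL2 (8.76 on the syk array and 10.1 on the mock array, 2.58-fold) and LOXL4 (4.66 and 6.18, at least 2.66-fold) followed, and LOXL1 had 6.04 and 6.62. The other probe sets of these genes did not all move with the brightest one. The 4 of TGM2 ran from -2.47 to 0.19, the 4 of LOXL2 from -1.37 to 0.45 and the 2 of LOXL4 from -1.51 to 0.40. The unmeasured members, LOX and LOXL3, were dim on both arrays.

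The propeptide-removal list had 0 of 6 measured members past 2-fold in either direction, beside 3.65% lower and 3.61% higher of all measured genes. ADAMTS14, a procollagen N-proteinase, had 4.29 on the syk array and 4.95 on the mock array, and the proteinase enhancers PCOLCE2 and PCOLCE had 7.13 and 6.11 on the syk array against 6.66 and 6.40 on the mock array. ADAMTS2 and TLL2 passed the filter but were dim. Of the 4 measured fibril-binding proteins, 0 were past 2-fold, beside the same shares of all measured genes. FMOD had 4.88 on the syk array and 4.50 on the mock array, TNXB 5.05 and 5.30, BGN 4.99 and 5.16, and PRELP 5.13 and 5.22.

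Among collagen receptors 1 of 8 measured members was at least 2-fold lower and 0 were higher, beside 3.65% and 3.61% of all measured genes, and with the mean over probe sets the lower count was 0 of 7. It was MRC2, the endocytic receptor that takes up collagen fragments, with 7.06 on the syk array and 8.68 on the mock array, 3.07-fold lower, while its second probe set differed by -0.34. ITGA2, the alpha 2 subunit of the main epithelial collagen integrin, had 9.55 on the syk array and 8.87 on the mock array, with differences of 0.69 and 0.68 in its 2 probe sets. Its partner ITGB1 had 11.5 on the syk array and 12.1 on the mock array, and the kinase receptor DDR2 had 5.09 and 5.60. GP6, a platelet receptor, had 5.73 on the syk array and 5.36 on the mock array. DDR1 is not named here, since its probe set carries several symbols. Of 8 measured genes of collagen breakdown, 2 were past 2-fold downward (MMP2 and TIMP2) and 1 upward (MMP1, which cleaves the intact helix of fibrillar collagens), beside 3.65% and 3.61% of all measured genes. With the mean over probe sets 0 were lower and 1 higher. MMP1 had 7.18 on the syk array and a dim 3.27 on the mock array in its 1 probe set, at least 5.33-fold higher. MMP2 had 6.18 on the syk array and 9.03 on the mock array, and TIMP2 had 9.27 and 10.3. The 3 probe sets of MMP2 ran from -2.84 to 0.16 and the 3 of TIMP2 from -1.18 to -0.27. Next to these, CTSK, a collagen-cleaving cathepsin, was dim on both arrays, and MMP14, the membrane-bound collagenase, had 5.81 on the syk array and 6.61 on the mock array.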

How the data were processed

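The authors' table holds 1 value for each of 54675 probe sets and 2 arrays. The submitters' processing notes name RMA, without a version or settings, and the deposited values, between 2.14 and 14.6, were taken as log2 intensities. Differences of dim probe sets are compressed by RMA and least certain, and the number of arrays limits the precision. Names come from the platform annotation: 41097 had 1 symbol, 1801 had several and 11777 were not named here. All 43 collagen genes matched a RefSeq gene ID (GRCh38.p14). No genome coordinates were used except those of the promoter windows and the order of genes.

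From these values the difference of each probe set, syk minus mock, was computed in Python 3.11.15 with pandas 2.3.3. Folds with 1 dim value are given as "at least", against 4.77. No test was made, since each group has 1 array, and therefore no p-value or error is given. As a guide to probe behaviour alone, the pooled SD of the difference between probe sets of a gene was 0.35 over 6028 genes. The calculation was tested on simulated data. Named are all collagen genes above 4.77 on an array and, per list, up to 5 measured members with the largest absolute difference; dim or unmeasured genes are named without fold. The members and lists were chosen with earlier results of these data known.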

Additional observations from a re-analysis of the deposited data

How the results depend on the processing

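The 7 of 18 collagen genes at least 2-fold lower were 6 of 18 with median centring of each array (COL18A1 at -0.997). They were 5 of 13 when a gene's probe sets were averaged and 5 of 13 with their median. With probe sets ending in _at alone they were 2 of 9, and under the 75th-percentile filter 4 of 5. They were 10 of 30 when probe sets were counted and 5 of 18 when every measured probe set had to pass. The shares over all genes lay between 2.36% and 3.78% under these settings. The 2 of 18 genes higher were 1 of 13 with averaged probe sets and 0 of 13 with their median. They were 1 of 9 with probe sets ending in _at alone and 1 of 5 under the 75th-percentile filter. When every measured probe set had to pass they were 1 of 18. The shares of all genes higher lay between 2.44% and 3.65% under these settings. The criterion on every measured probe set and the count of probe sets were added after the data had been seen. Fewer genes had values under several of these settings: 9 with probe sets ending in _at alone and 5 at the 75th percentile, where the median was -1.09. Elsewhere the median lay between -0.54 and -0.12 and stayed below 0. With averaged probe sets COL12A1 and COL6A1 missed the filter. COL5A2 and COL11A1 were lower by at least 2-fold under each of 9 alternatives. The filters, the floor and the restriction to _at probe sets could not change their values, since their brightest probe sets are bright _at ones. Over all alternatives the difference ran from -2.88 to -2.67 for COL5A2 and from -2.36 to -1.59 for COL11A1. COL13A1 was 0.40 with the median over probe sets and COL1A1 -0.55 with the mean and -0.09 with the median. Among the collagen genes past 2-fold, single probe sets turned the sign in COL12A1 (-0.11 and -0.066) and COL6A1 (0.085, 0.10 and 0.19), all of them dim on both arrays. The P3H3 call in the chain modification list was lost with the floor, and with averaged probe sets the lower counts of the crosslinking, receptor and degradation lists were 0. No paired analysis was possible because each population has 1 array. Dim signal leaves 29 of 43 collagen genes without a direction of their own.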

Other observations

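Other proteins carry a short collagen-like domain but are not counted as collagens, and a list of 30 of them was drawn up after the collagen values had been seen. Of 10 measured members, 0 were past 2-fold in either direction, against a background of 3.65% lower and 3.61% higher over all measured genes. Their median difference was -0.01. CTHRC1, a secreted protein of wound repair and tumour stroma, had 8.12 on the syk array and 8.58 on the mock array. EMILIN2, an elastin-associated glycoprotein, had 7.48 on the syk array and 6.79 on the mock array, with its 3 probe sets between -0.32 and 0.69. The scavenger receptor SCARA5 had 5.02 on the syk array and a dim 4.11 on the mock array.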
